A study of Homo sapiens with 8 samples.

Results

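The regions described here carried NIPBL and SMC1A and no called MED1 in GM12878, an established human lymphoblastoid cell line derived from B lymphocytes. Overlapping peaks of all 6 deposited lists on chromosomes 1 to 22 and X were merged, which gave 92867 regions. Members were chosen by peak calls alone. A region was a member when both NIPBL lists and both SMC1A lists had a peak in it and neither MED1 list did, and 449 regions met this rule, or 0.483% of all merged regions (exact Clopper-Pearson 95% interval 0.440 to 0.530). The rule read the peak calls of every list, so the values below describe the members and no test was made on them. Intervals of shares cover counting error over regions only.

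The series profiled NIPBL, SMC1A and MED1 by ChIP-seq in untreated GM12878 cells, with 2 libraries a factor, and every list was called against the same pool of 2 whole-cell extract libraries. Its title names Cornelia de Lange syndrome as the setting, and mutations of NIPBL are the most common origin of that disorder. All groups were the same wild-type line and differed only in the antibody. The labels do not say whether a factor's replicates were grown separately, and differences between them may therefore be technical only.

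SMC1A is a core subunit of cohesin, the ring-shaped complex that holds sister chromatids together and forms chromatin loops. NIPBL loads cohesin onto DNA and stimulates its loop extrusion. MED1 is a subunit of Mediator, the coactivator that links transcription factors at enhancers with RNA polymerase II at promoters, and NIPBL is known to be found with Mediator at active enhancers and promoters. Strong cohesin peaks away from such sites are typically found where CTCF stops the moving ring. No peak list of CTCF or of a histone mark was used here, and no gene annotation or sequence of the build of the peaks (hg19) was at hand, so regions are named by position.

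The lists held 21422 and 15357 NIPBL peaks, 56510 and 68228 SMC1A peaks and 18131 and 45046 MED1 peaks in replicates 1 and 2. Depth was inferred from the lowest control value of each list, not from read counts. Relative to the deepest library it ran from 0.743 to 1.00. MED1 replicate 2, which had 0.755 of that depth, had the longer MED1 list, and only 2 regions with NIPBL and SMC1A were kept from membership by MED1 replicate 1 alone.

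NIPBL and SMC1A rarely coincided without MED1. Peaks of both NIPBL and both SMC1A lists were found in 6994 regions, and the 449 members were 6.42% of them (5.86 to 7.02). Of the others, 5295 had MED1 in both lists, 1248 in replicate 2 only and 2 in replicate 1 only. Seen from SMC1A, 35600 regions had both SMC1A lists and no MED1, and 1.26% of these had NIPBL in both lists (1.15 to 1.38). The share was 19.4% where MED1 was in 1 list (18.4 to 20.3, 6459 regions) and 67.3% where it was in both (66.2 to 68.3, 7872 regions). Seen from NIPBL, 64.3% of the 698 regions with both NIPBL lists and no MED1 were members (60.6 to 67.9). A further 780 SMC1A regions without MED1 had NIPBL in replicate 1 only and 243 in replicate 2 only, and 34128 had none and are called SMC1A-alone regions below. The number of members rested on single libraries: with MED1 replicate 2 left out it was 1720, with NIPBL replicate 2 left out 1229, and with NIPBL replicate 1 left out 692. Leaving out a list removes a condition of the rule, so a rise was built in and only its size is informative. With the same number of top peaks taken from every list there were 620 members, or 60.8% of the regions with NIPBL and SMC1A that this setting left.

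The members were strong SMC1A sites with middling NIPBL peaks. Fold enrichment is the authors' value at the summit, over the control, and where a region held several peaks of a list the one with the highest fold was used. The SMC1A fold of the members ran from 3.06 to 56.7 with a median of 23.5 in replicate 1, and from 2.76 to 61.3 with a median of 25.7 in replicate 2. Ranked within the whole SMC1A list, where 100 is the strongest peak, the median member stood at percentile 89.8 in replicate 1 and 90.8 in replicate 2. The NIPBL fold ran from 2.45 to 11.2 with a median of 4.45 in replicate 1, and from 2.11 to 11.0 with a median of 4.24 in replicate 2. Its median percentile was 68.2 and 56.3. The typical member thus lay near the top of the SMC1A lists and, by fold, only modestly above the middle of the NIPBL lists. Ranked by −log10 p instead, its NIPBL percentiles were 62.5 and 47.9, the latter just under the middle.

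**Figure D1:**
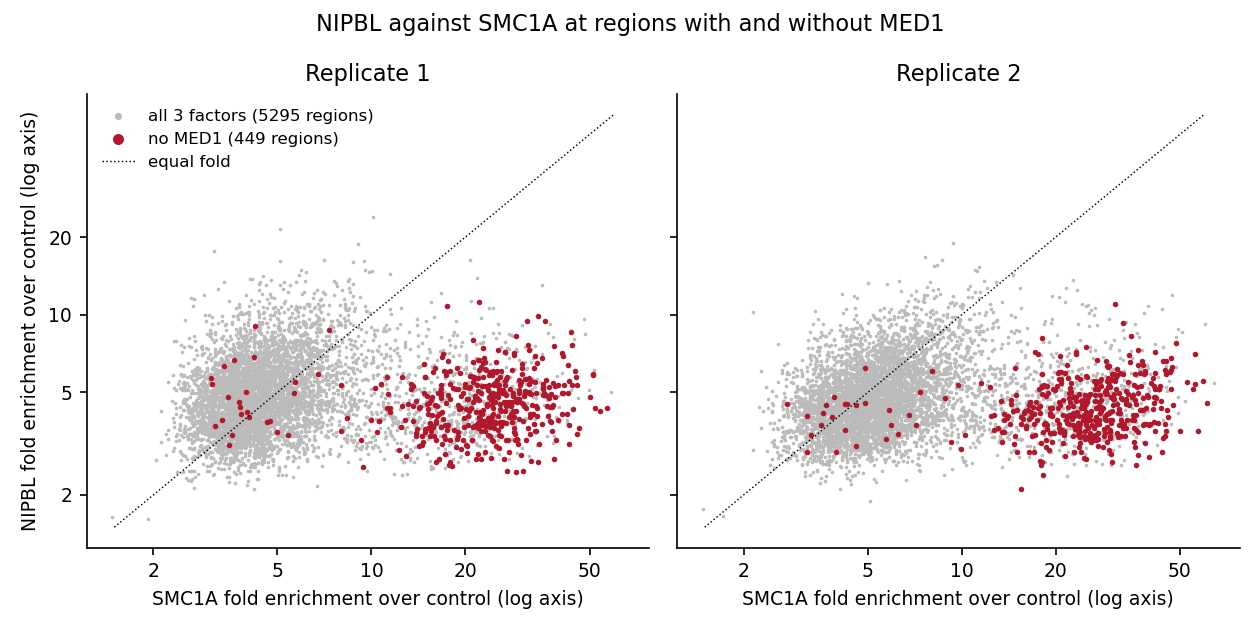
NIPBL fold enrichment (vertical, log axis) against SMC1A fold enrichment (horizontal, log axis) at each region, for replicate 1 on the left and replicate 2 on the right; red points are the 449 regions without MED1, grey points the 5295 regions with all 3 factors, and the dotted line marks equal fold. Most red points form a cloud at high SMC1A fold, with medians of 23.5 and 25.7, and a small number lie within the grey cloud at low SMC1A fold.

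Regions with all 3 factors had the reverse order of strength. Their median SMC1A fold was 4.48 and 5.47 in replicates 1 and 2, at percentiles 21.8 and 37.2 of the lists. Their median NIPBL fold was 4.76 and 4.63, at percentiles 74.7 and 67.6. The median NIPBL fold thus differed little between the 2 kinds of region, while the SMC1A fold of the members was several times as high. Regions with MED1 in replicate 2 only lay between for SMC1A, with a median fold of 5.74 in replicate 1 and quartiles of 3.80 and 21.8, a spread that covered both kinds. Their median NIPBL folds, 4.19 and 4.16, were below those of both. SMC1A-alone regions had median SMC1A folds of 11.6 and 13.1, below the members in both replicates.

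A percentile over 80 in both SMC1A lists was reached by 319 of the 449 members, or 71.0% (66.6 to 75.2). The same held for 5.65% of regions with all 3 factors and 22.7% of SMC1A-alone regions. At the other end, 24 members (5.35%) had percentiles of at most 50 in both SMC1A lists, against 74.8% of regions with all 3 factors. These 24 had median SMC1A folds of 3.89 and 4.26 and median NIPBL folds of 4.30 and 4.07. They were also narrow, with a median width of 472.5 bp. For NIPBL, 59 members (13.1%) were over percentile 80 in both lists and 97 (21.6%) at most 50 in both, so the members were spread through the NIPBL lists. These shares were 28.0% and 17.1% in regions with all 3 factors. They were 11.5% and 25.7% in regions with MED1 in replicate 2 only.

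Fragment pileups, the number of fragments stacked at a summit, could be recovered from the authors' fold and p for nearly every peak, and are not divided by the control. Pileups of SMC1A and NIPBL are set side by side within a replicate although the libraries differ in depth and antibody. The median member had 28 NIPBL and 139 SMC1A fragments in replicate 1, and 24 and 154.5 in replicate 2. The NIPBL pileup was a median of 20.8% of the SMC1A pileup of the same member in replicate 1 and 16.0% in replicate 2. In regions with all 3 factors it was 134% and 94.1%, where the NIPBL pileups themselves were also higher, with medians of 40 and 33 fragments. It exceeded the SMC1A pileup in 21 of 446 members with both values in replicate 1 (4.71%) and 12 of 440 in replicate 2 (2.73%). Among regions with all 3 factors it did so in 71.6% and 42.8%.

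The strength of NIPBL at a member followed that of SMC1A only weakly. Across the 449 members, the Spearman correlation of NIPBL with SMC1A fold was 0.143 in replicate 1 and 0.226 in replicate 2. Between the 2 replicates it was 0.524 for NIPBL and 0.946 for SMC1A. These correlations run over regions that share 4 libraries and 1 control pool, and they are descriptions.

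The presence of NIPBL varied widely with SMC1A strength where no MED1 was called. Among SMC1A regions without MED1, the share with NIPBL in both lists was 0.0959% at mean SMC1A percentiles over 40 to 60. It was higher in each bin above, up to 8.54% in the top percentile (31 of 363 regions, 5.88 to 11.9). Over percentile 80 it was 335 of 9945, or 3.37% (3.02 to 3.74), against 0.407% of 24792 regions from 20 to 80. At percentiles up to 20 it was 1.51% (13 of 863 regions), above the 0.195% at 20 to 40, so the share was not monotone. In the top percentile, where SMC1A regions without MED1 reached 8.54%, the share was 32.5% for regions with MED1 in 1 list and 71.4% for those with MED1 in both. With MED1 in both lists the share did not rise steadily, at 64.4% up to percentile 20 and 46.9% over 60 to 80.

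**Figure D2:**
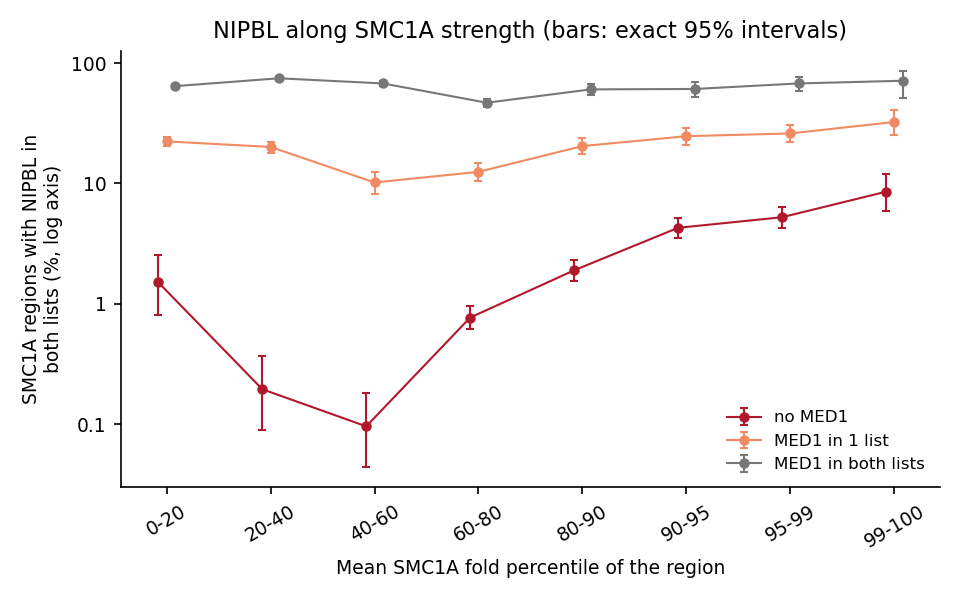
Percent of SMC1A regions with NIPBL in both lists (vertical, log axis) by the mean SMC1A fold percentile of the region (horizontal, bins), for regions without MED1 (red), with MED1 in 1 list (orange) and with MED1 in both lists (grey); bars are exact Clopper-Pearson 95% intervals. The red line falls to 0.0959% at 40 to 60 and climbs to 8.54% at 99 to 100, and stays under the other lines at every strength.

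Among strong SMC1A regions the members had stronger and wider SMC1A peaks than SMC1A-alone regions. The same cut was applied to both kinds, but strength within it was not matched. With mean percentiles over 80, the 335 members had median SMC1A folds of 26.0 and 28.8, against 22.5 and 25.4 for 8955 SMC1A-alone regions. Their SMC1A pileups were 152 and 168 fragments, against 114 and 126. Their SMC1A peaks were 664 and 679 bp wide, against 445 and 464. The control signal at the summit moved the same way, at 4.70 and 4.64 fragments in the members against 3.76 and 3.72. Its part in these differences and in the NIPBL calls was not tested. Nor was the part of SMC1A fold in the differences of pileup and width.

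**Figure D3:**
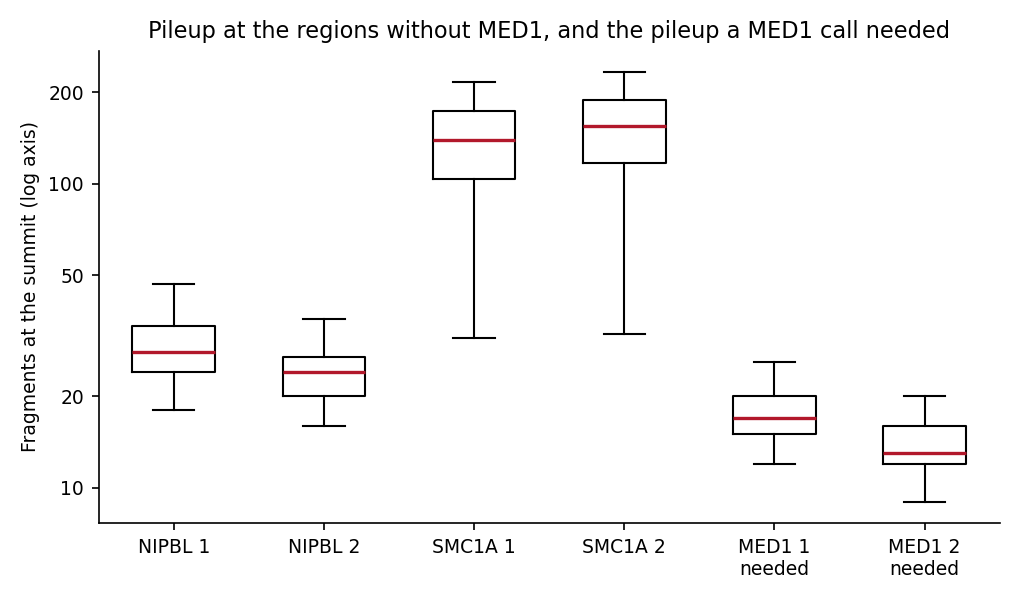
Fragments stacked at the summit (log axis) of NIPBL and SMC1A peaks in the members, and the pileup that a MED1 call would have needed there, in replicates 1 and 2; boxes run between the quartiles with the median in red, and whiskers end at percentiles 5 and 95. SMC1A medians of 139 and 154.5 stand far above the NIPBL medians of 28 and 24, and a MED1 call would have needed medians of 17 and 13 fragments.

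How weak a MED1 signal the calls could have missed was worked out from the control at each member. The control at a member's SMC1A replicate 2 summit was scaled to each MED1 library, and the smallest pileup that would have passed the threshold of that list was computed. This gave a value at 440 members. The median was 17 fragments in replicate 1 (lowest 10, highest 34) and 13 in replicate 2 (lowest 8, highest 26). Expressed as fold enrichment, the medians were 2.48 and 2.45. At single members the fold limits ran up to 3.26 and 3.22. By this estimate a weaker summit would not have passed, so the absence of a MED1 call did not mean no MED1. Whether every stronger summit would have been called was not tested.

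The edge of the rule can be seen on both sides. The lowest −log10 q values among the members were 1.69 and 1.39 in the NIPBL lists and 2.69 and 1.80 in the SMC1A lists, so some members were near the limit of calling. Just outside, the region with the weakest MED1 call, chr20:52679174-52679723, had a MED1 fold of 2.19 in replicate 2 and no MED1 peak in replicate 1. The next, chr16:50705507-50706060, had a MED1 fold of 2.50, and chr7:128731294-128732223 had 2.46. Like most members, these 3 had far more SMC1A than NIPBL fragments, with SMC1A pileups of 83 and 97, 106 and 137, and 180 and 197 fragments in replicates 1 and 2.

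NIPBL summits stood to one side of SMC1A summits in most members. The median distance between the NIPBL and the SMC1A summit of a member was 100 bp in replicate 1 (quartiles 73 and 130) and 88 bp in replicate 2 (60 and 120). SMC1A summits of the 2 replicates were a median of 13 bp apart (7 and 22), and NIPBL summits 39 bp apart (16 and 78). The median offset was thus larger than the distance between replicates of either factor. It fell between 50 and 150 bp in 335 members in replicate 1, or 74.6% (70.3 to 78.6), and in 314 in replicate 2, or 69.9% (65.5 to 74.1). It was under 50 bp in 47 (10.5%) and 83 (18.5%). In the 25 members with mean SMC1A percentiles of at most 50 the medians were 88 and 43 bp. Of these, 32.0% and 56.0% had offsets under 50 bp.

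The side was kept between replicates in most members. In 382 of 449 members, or 85.1% (81.4 to 88.2), the NIPBL summits of both replicates lay on the same side of the SMC1A summits. Among the 337 members with an offset of at least 50 bp in both replicates it was 304, or 90.2%. NIPBL lay towards the higher coordinate of the chromosome in 231 members (51.4%) in replicate 1 and 222 (49.4%) in replicate 2. With the midpoints of the peaks in place of summits, the same-side share was 71.3% and the median offset 75.3 bp. Without MED1 replicate 2 in the rule, which raised the number of regions to 1720, the same-side share was also 71.3%.

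**Figure D4:**
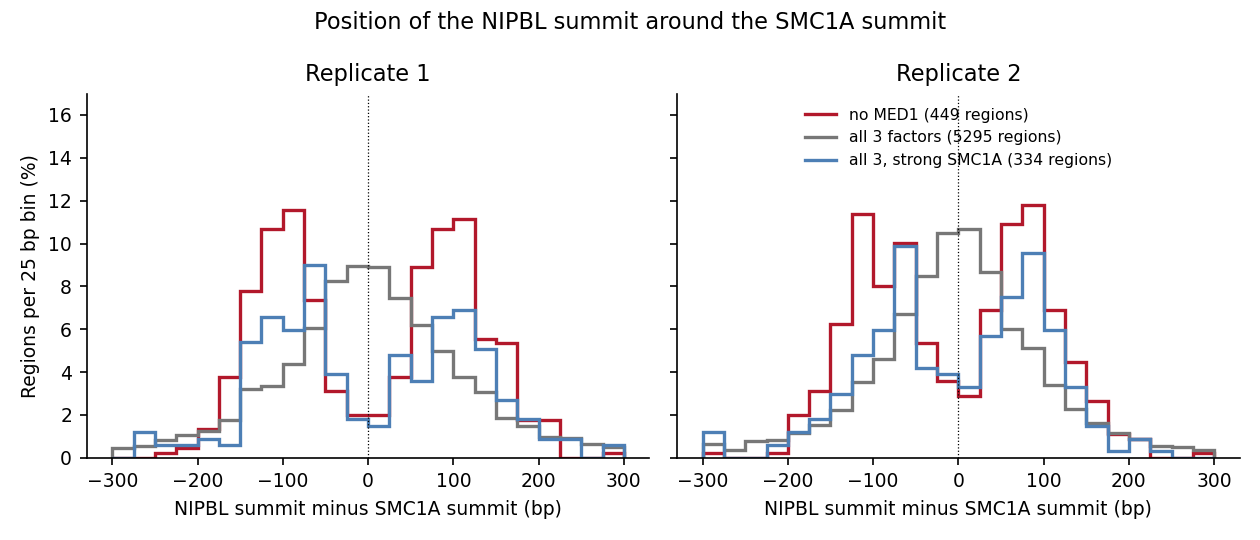
Percent of regions per 25 bp bin (vertical) by the position of the NIPBL summit minus that of the SMC1A summit in bp (horizontal), for replicate 1 on the left and replicate 2 on the right; red is the 449 regions without MED1, grey the 5295 regions with all 3 factors and blue the 334 of these with a mean SMC1A percentile over 80, and offsets beyond 300 bp are not drawn, which leaves out 2 and 5 red, 1010 and 918 grey and 94 and 84 blue regions in replicates 1 and 2. The red and blue lines have a peak on each side of 0 with a dip between them, and the grey line has 1 peak at 0.

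Regions with all 3 factors had a single central peak of offsets. Their median offsets were 85 and 73 bp in replicates 1 and 2, against 100 and 88 bp in the members. Summits of the 2 replicates lay a median of 46 bp apart for SMC1A and 47 bp for NIPBL, against 13 and 39 bp in the members. The part of this spread in the same-side share was not tested. In regions with all 3 factors, NIPBL summits lay within 50 bp of SMC1A summits in 33.3% and 38.0%, against 10.5% and 18.5% of members. NIPBL kept its side in 61.9% of them (60.5 to 63.2). The difference went with SMC1A strength. In the 334 regions with all 3 factors and a mean SMC1A percentile over 80, the same-side share was 84.4% (80.1 to 88.1), close to the 86.3% (82.1 to 89.8) of the 335 members of that strength. In 414 such regions with MED1 in replicate 2 only it was 80.4% (76.3 to 84.1). The strong regions with all 3 factors differed in the spread of their offsets, with 49.4% and 50.9% between 50 and 150 bp against 77.6% and 73.1% of members, and their regions were wider, with a median of 1407.5 bp against 757 bp. The displaced NIPBL summit was therefore found at strong SMC1A sites with and without MED1.

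The offset was also seen in NIPBL peaks that the rule did not take. In the 780 SMC1A regions without MED1 that had NIPBL in replicate 1 only, the median offset was 94 bp (62 and 130) and 65.4% fell between 50 and 150 bp. In the 243 with NIPBL in replicate 2 only, the median was 80 bp (52 and 121.5) and 63.8% fell in that band. These regions share the SMC1A libraries with the members, but not the requirement of NIPBL in both lists.

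Within a member the NIPBL peak was usually nested in the SMC1A peak. Median peak widths were 299 and 269 bp for NIPBL and 633 and 649 bp for SMC1A, and the members themselves had a median width of 724 bp (lowest 249, highest 2166). The SMC1A peak held the NIPBL summit in 445 of 449 members in each replicate (99.1%). The NIPBL peak held the SMC1A summit in 71.3% and 71.0%. The whole NIPBL peak lay within the SMC1A peak in 75.3% and 87.3% of members, against 14.6% and 41.9% of regions with all 3 factors. A single peak in each of the 4 lists made up 415 members.

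The members stood nearer to MED1 than SMC1A-alone regions did. The median distance from a member to the nearest MED1 peak of either list was 9975 bp (lowest 32, quartiles 3897 and 29350, highest 274885). For SMC1A-alone regions it was 36775 bp. A MED1 peak lay within 10 kb of 225 members, or 50.1% (45.4 to 54.8), against 22.8% of SMC1A-alone regions (22.3 to 23.2). Within 100 kb the shares were 96.4% and 72.9%. Among regions with mean SMC1A percentiles over 80, the medians were 11509 and 36823 bp and the shares within 10 kb 46.0% and 19.9%. The order was thus the same above that cut, within which strength was not matched. The nearest MED1 peak of replicate 1 was a median of 26910 bp from a member and 101460 bp from an SMC1A-alone region. Without MED1 replicate 2 in the rule as well, the median for the regions then chosen was 17544 bp.

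**Figure D5:**
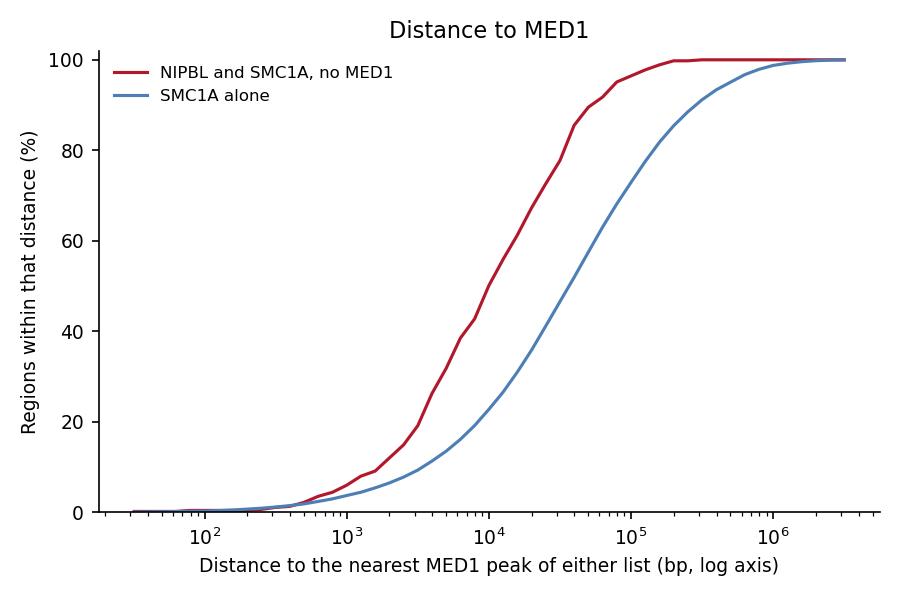
Cumulative percent of regions (vertical) with a MED1 peak of either list within a given distance in bp (horizontal, log axis), for the 449 regions without MED1 and the 34128 SMC1A-alone regions. At 10 kb the members reach 50.1% and the SMC1A-alone regions 22.8%.

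Few regions of either kind had MED1 within 1 kb, and the members more often than SMC1A-alone regions. A MED1 peak lay within 1 kb of 27 members (6.01%), against 3.74% of SMC1A-alone regions (3.54 to 3.95). The interval of the members' share only just cleared that range. At shorter distances the order was not steady, with 0.445% of members against 0.314% of SMC1A-alone regions at 100 bp. It was reversed at 251 bp, with 0.668% of members against 0.929%. One of the neighbouring merged regions, on either side, held MED1 for 301 members (67.0%), against 46.4% of SMC1A-alone regions and 92.4% of regions with all 3 factors. The nearest other member was a median of 1447880 bp away, and 44 members (9.80%) had one within 100 kb. The nearest other region with both NIPBL lists was a median of 27982 bp from a member, against 6644 bp from a region with all 3 factors. For regions with both SMC1A lists these distances were 6485 and 3851 bp.

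The strongest members by the mean percentile in all 4 lists were high in both factors. Their NIPBL folds were above the upper quartiles of the members, 5.35 and 5.07, so they were not typical in NIPBL. At chr2:43354126-43355095 the NIPBL fold was 9.44 and 7.18 and the SMC1A fold 36.1 and 41.6 in replicates 1 and 2. Its NIPBL summits lay 139 and 137 bp to the lower-coordinate side of SMC1A. At chr16:10274435-10276190 the NIPBL fold was 7.11 and 7.80 and the SMC1A fold 40.9 and 48.5, and a MED1 peak lay 480 bp away. Both had SMC1A several times as high as NIPBL in each replicate. At chr5:78195391-78196159 the NIPBL fold was 9.49 and 8.28 and the SMC1A fold 31.5 and 34.8, with NIPBL 134 and 170 bp to the lower side. At chrX:77810746-77812426 the NIPBL fold was 9.85 and 6.82 and the SMC1A fold 34.3 and 46.9. There the NIPBL summit changed side, from 121 bp below in replicate 1 to 18 bp above in replicate 2. At chr1:119908553-119910698, which was 2146 bp wide, the NIPBL fold was 7.62 and 7.30 and the SMC1A fold 43.8 and 36.7.

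The 5 strongest members by NIPBL and the 5 strongest by SMC1A shared no region, although some were strong in both factors. The strongest NIPBL among the members was at chr2:171092110-171093079, with folds of 11.2 and 11.0 and pileups of 71 and 61 fragments, and SMC1A folds there were 22.1 and 30.9. The next by NIPBL, chr12:105073730-105074620, had NIPBL folds of 10.9 and 8.10 and SMC1A folds of 17.4 and 18.1, under the member median. The others of the 5 strongest by NIPBL were chr5:78195391-78196159, chr2:43354126-43355095 and chrX:77810746-77812426. Their SMC1A folds were 31.5 and 34.8, 36.1 and 41.6, and 34.3 and 46.9, above the upper quartiles of the members, 29.2 and 32.0. The strongest SMC1A was at chr15:74595013-74595697, with folds of 56.7 and 59.5 and NIPBL folds of 4.33 and 5.53. Its NIPBL pileups were 19 and 17 fragments, below the member median of each replicate.

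Of the 5 weakest members, 4 had NIPBL and SMC1A folds of 2.94 to 4.07 and 3.16 to 3.85, and the other stood apart by its SMC1A. At chr2:65647943-65648270 the NIPBL folds were 3.13 and 2.94 and the SMC1A folds 3.51 and 3.19. At chr6:47408576-47408824 the NIPBL pileups were 25 and 20 fragments and the SMC1A pileups 17 and 16, so NIPBL was the higher. The exception, chr13:99134604-99135180, had NIPBL folds of 2.56 and 3.03 and SMC1A folds of 9.42 and 9.93. The widest member, chr2:169202971-169205136, spanned 2166 bp and lay 74070 bp from MED1. The member nearest to MED1, chr6:89202440-89203171, ended 32 bp from a MED1 peak, with SMC1A pileups of 57 and 67 fragments and NIPBL pileups of 32 and 25. The farthest, chr3:106328327-106328975, lay 274885 bp from MED1 and had 50 and 34 NIPBL and 162 and 198 SMC1A fragments. Its SMC1A folds were 15.7 and 21.3, below the member medians.

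The members were found on every chromosome examined. The most were on chromosome 2, with 52 (11.6% of members, 8.77 to 14.9), against 8.19% of all regions with NIPBL and SMC1A. On X, 18 members were 10.1% of the 178 regions with NIPBL and SMC1A there (6.10 to 15.5), the highest share of any chromosome. The lowest share was on chromosome 19, with 7 of 254 regions or 2.76% (1.12 to 5.60). Chromosomes 20, with 6 of 182 (3.30%), 16, with 10 of 290 (3.45%), and 17, with 10 of 285 (3.51%), were also below the 6.42% of all regions. With 6 to 52 members on each of these chromosomes the intervals are wide, and chromosomes were singled out after their values were seen.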

How the data were processed

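Per the submitters' processing notes, reads were handled with Trimmomatic 0.33, BWA 0.7.12 and MACS2 2.1.0 on hg19. Each ChIP library has its own deposited narrowPeak list, and the 2 input libraries, pooled, were the control per the labels. In each list the authors gave the fold enrichment at the summit as a ratio, the −log10 p and −log10 q values, a display score that was not used, and the summit's offset from the peak's start in bp.

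Peaks on chromosomes 1 to 22 and X that overlapped by at least 1 bp were merged, and regions were classed by the lists with a peak in them. Strength was the percentile of fold within a list. Pileup and control were solved from fold and −log10 p, taken as a Poisson tail with 1 added to both. Shares have exact Clopper-Pearson 95% intervals, with counting error only. Depth is known only relative to the deepest library, from the lowest control value solved in each list, and no read counts were used. Scripts used Python 3.11.15, NumPy 2.4.6, pandas 2.3.3, SciPy 1.17.1 and matplotlib 3.10.9 and were tested on simulated data.

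The rule of the members used the same peak calls, so no test was run. The members, compared classes and measures were chosen with earlier results of these data known. Named regions were the 10 strongest members over all 4 lists, the 5 strongest by NIPBL, the 5 strongest by SMC1A, the 5 weakest, the 3 widest, the 3 nearest to and 3 farthest from MED1, and the 3 regions just outside with the weakest MED1; those that add to the description are printed. Alternatives were stricter peaks, a larger overlap, each library left out, equal lists and ranking by −log10 p. Motifs and gene starts were not analysed here, since no hg19 sequence or annotation was used.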

Additional observations from a re-analysis of the deposited data

How the results depend on the processing

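The number of members was 449. Leaving a library out removes a condition of the rule and gave 451 to 1720 members, most without MED1 replicate 2. Their share of regions with NIPBL and SMC1A was 6.42%, from 5.58 to 24.1% with a library left out, and 60.8% with equal lists. The median NIPBL percentile was 62.2 averaged over replicates, from 52.4 to 62.8 with a library left out and 55.2 when ranked by −log10 p. The SMC1A percentile was 90.3, from 73.9 to 90.3 with a library left out and 92.1 when ranked by −log10 p. The summit distance was 94 bp, from 84.5 to 100 bp with a library left out. The distance to MED1 was 9975 bp, from 9974 to 17544 bp with a library left out. The same-side share was 85.1%, and 71.3 and 84.7% without MED1 replicates 2 and 1. Chosen after seeing the data, midpoints of peaks gave 75.3 bp and 71.3%, and members with 1 peak in each list and SMC1A summits of the other replicate moved the distance by less than the spread between replicates and left the share within its interval (81.4 to 88.2). Stricter peaks, with −log10 q of at least 3, gave 433 members and a share of 6.82%. No paired analysis was possible because the results come from no test. Alternatives for motifs and gene starts were not run. Relative depth of 0.743 to 1.00 and list lengths set what could be called. The fold limits given are the least that a MED1 call needed, and absence of a call does not mean no MED1.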
